A study of Arabidopsis thaliana with 4 samples.

Results

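Plates TA30 to TA38 are a block of array probes that lies, in the order of probe IDs, between 2 stretches of plates with low values, TA21 to TA29 on one side and TA39 to TA51 on the other. All wells of these 9 plates that had a value were taken, which gave 822 of the 21691 valued probes of the array (3.79%). The probes were measured for histone H3 trimethylated at lysine 4 (H3K4me3) by chromatin immunoprecipitation and array hybridisation (ChIP-chip). The chromatin came from untreated 10-day-old seedlings of Arabidopsis thaliana, ecotype Col-0, grown in liquid medium under long days. In each of 2 ChIP replicates, I and II, the DNA recovered with an antibody against H3K4me3 was hybridised against the input DNA of that replicate on 2 arrays with the dyes exchanged. The sources used here do not say whether the replicates were separate cultures, nor how many seedlings were pooled, and there is no other genotype, tissue or treatment in the series.

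H3K4me3 is deposited on nucleosomes near the start of genes that are being transcribed and is recognised there by proteins that promote transcription. In plants, as in other eukaryotes, it typically forms short domains over the 5′ part of genes and is scarce in heterochromatin, silent repeats and the DNA between genes. A profile along neighbouring array probes is therefore usually read as a series of peaks over a low floor.

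The plate limits came from the plate medians of these same measurements, so levels and counts in these plates are given as descriptions. A test of each probe against the median of the array is given last, and nothing about the block is read from it. Each replicate was set to 0 at its own median over the 21691 valued probes, which stood at -1.91 log units in I and -0.90 in II as deposited, and the mean of both replicates is the level used here. The values deposited for the 2 arrays of a replicate were identical at all 21691 probes, so each probe had 2 values, 1 per replicate. Differences between the arrays of a pair, and so between the dyes, cannot be seen in them. The deposited ratios are taken as log2. The sources used here give neither the log base nor the direction, so a probe is called high or low relative to the median of its replicate. Were the ratios deposited as input over IP, the low probes and not the high ones would carry more of the mark. Probe IDs hold a set, a plate, a row and a column, and they were not placed in the genome, so neighbours here are neighbours in ID order.

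The 822 probes together lay below the middle of the array but kept a long upper tail. Their median was -0.28 log units, with -0.34 in replicate I and -0.16 in replicate II. The middle 50% of the probes ran from -0.70 to 0.36, the 10th percentile was -0.96 and the 90th was 1.47. The lowest mean was -1.93 and the highest 4.23. Above 0 lay 319 probes (38.8%), 49 had a mean of at least 2 log units and 14 a mean of at least 3. On all other plates 50.7% of 20869 probes lay above 0, 2121 had a mean of at least 2 and 485 a mean of at least 3. The 95th percentile was 2.17 in the block and 2.57 on the other plates, so the upper tail was not particular to the block.

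A mean of 1 log unit or more was found for 117 of the 822 probes (14.2%, exact 95% interval 11.9 to 16.8%), where 21.7% of all probes on the array reached it. At -1 or less lay 72 (8.76%, 6.92 to 10.9%), where 5.67% of all probes did. These intervals cover counting error only and treat probes as independent, which neighbours are not. The probes nearest to the limit of 1 were TA36D08, TA31D11 and TA30F07, each at 1.02, on the upper side and TA31H11 at 0.995 and TA32H02 at 0.993 on the lower side. In all, 20 probes lay within 0.1 log units of it. All 117 high probes were above 0 in both replicates, and 98 of the 822 probes reached 1 in both replicates separately.

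The level in these plates lay between those of its surroundings. The median was -0.28 in TA30 to TA38, against -0.59 in TA21 to TA29, -0.76 in TA39 to TA51 and 0.13 in TA01 to TA20, the plates before the first low stretch. The share of probes at 1 or more followed the same order, with 14.2% in TA30 to TA38, against 6.24%, 1.85% and 26.9%. The share at -1 or less ran the other way, with 8.76% in TA30 to TA38, against 18.2%, 24.1% and 3.37%. The floor differed less than the tail. The 10th percentile was -0.96 in TA30 to TA38, against -1.16 in each low stretch and -0.73 in TA01 to TA20, while the 90th percentile was 1.47, against 0.41, -0.08 and 2.21.

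**Figure D1:**
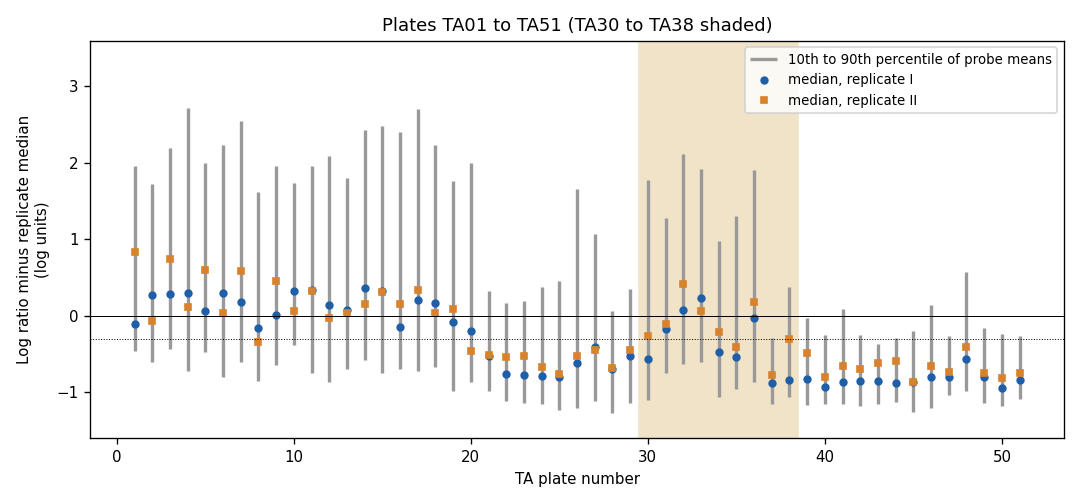
Plate medians of replicates I (circles) and II (squares) in log units after centring, for plates TA01 to TA51 in ID order, with grey bars for the 10th to 90th percentile of the probe means of a plate and a dotted line at -0.3, the limit for a low plate. Inside the shaded plates TA30 to TA38 the medians of the means run from -0.82 at TA37 to 0.23 at TA32, a range of 1.05 log units.

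The block was not uniform, and its name as plates between low stretches covers plates of different kinds. The median of single plates ran over 1.05 log units in TA30 to TA38, against 0.38 in TA21 to TA29, 0.32 in TA39 to TA51 and 0.85 in TA01 to TA20. The low stretches took in only plates with medians below -0.3 in both replicates, so their narrow ranges were partly set by that choice. Plates TA32, TA33 and TA36 had medians of 0.23, 0.18 and 0.07, inside the range of the plates TA01 to TA20 (-0.32 to 0.52). Their shares of probes at 1 or more were 26.0%, 17.9% and 20.2%, where those of single plates in TA01 to TA20 ran from 17.9 to 37.5%. Plates TA30, TA31, TA34 and TA35 had lower medians, of -0.44, -0.20, -0.42 and -0.45, and still held high probes, with shares of 16.7%, 13.5%, 10.4% and 13.5%. The median of TA31 was also inside the range of the plates TA01 to TA20, but its share of high probes was below theirs. Plates TA37 and TA38 were near the level of the low stretches. Their medians were -0.82 and -0.63, with 4 of 96 and 1 of 62 probes at 1 or more, and no probe of either plate reached a mean of 2. The plates TA39 to TA51 had medians from -0.85 to -0.53, a range that includes TA37 and TA38. Those of TA21 to TA29 ran from -0.77 to -0.40, which includes TA38 but not TA37.

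The low stretches had been set by plate medians below -0.3 in I and in II, over 5 or more plates in a row. By that limit 2 plates of the block were low themselves, TA35 with medians of -0.54 in I and -0.41 in II, and TA37 with -0.87 and -0.78. The end plates missed the limit narrowly and in replicate II alone. TA30 had -0.56 and -0.27, next to TA29 with -0.53 and -0.45. TA38 had -0.83 and -0.298, next to TA39 with -0.82 and -0.48.

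The place of TA38 rested on its last 12 valued wells. This plate had 62 probes with a value, 50 from TA38A01 to TA38E02 and 12 scattered from TA38G01 to TA38H12. The 12 wells had means between 0.04 and 0.53, all above 0, and replicate II was the higher in 12 of 12, by a median of 0.78 log units. In replicate I they lay close together, from -0.36 to 0.04, and in replicate II from 0.20 to 1.13. The 50 other wells had a median of -0.74, with -0.91 in I and -0.44 in II, so that without the 12 wells the plate was below -0.3 in both replicates. TA37 was below that limit as well, so both plates would then join the low stretch TA39 to TA51. Together TA37 and TA38 held 5 of 158 probes at 1 or more, and the block was not recounted without them. Leaving only the 12 wells out of the block moved its median to -0.30 and its share of high probes to 14.4%, an alternative chosen after the values were seen.

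**Figure D2:**
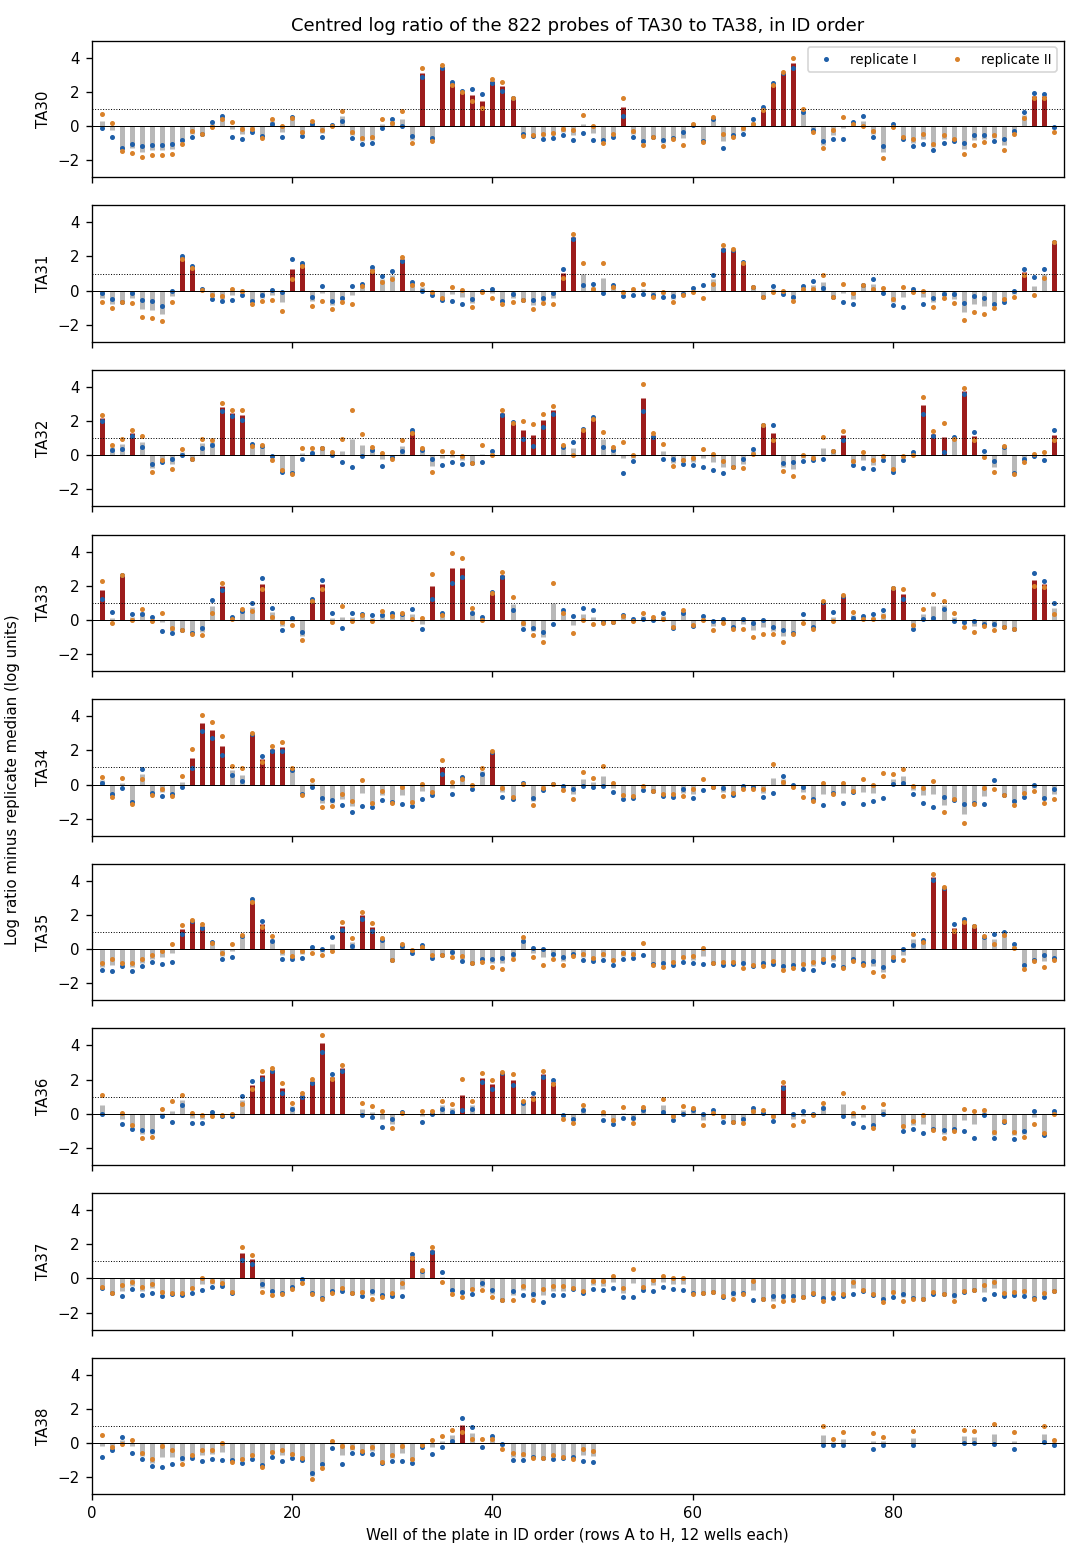
Centred log ratio (log units) of the 822 probes along the wells of plates TA30 (top) to TA38 (bottom), with bars for the mean of both replicates (red at 1 or more), blue points for replicate I and orange points for replicate II. High probes stand mostly in groups of neighbours. The other probes lie mostly between 1 and -1, and the plate medians of TA32, TA33 and TA36 are above 0. The last run of TA36 is at TA36F09, and TA37 and TA38 hold 5 high probes together.

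High probes came mostly in groups of neighbours. The 117 probes at 1 or more formed 54 runs of consecutive wells, of which 22 held 1 probe, 18 held 2, 5 held 3 and 9 held 4 or more. Of the 117, 95 (81.2%) were in runs of at least 2 and 44 (37.6%) in runs of at least 4. High probes were grouped in the other plates too. Runs of at least 2 held 73.5% of 49 high probes in TA21 to TA29, 72.7% of 22 in TA39 to TA51 and 87.3% of 511 in TA01 to TA20. Runs of at least 4 held 40.8%, 0% and 33.5% in the same order. By the plate of the first probe, 11 runs began in TA32 and 11 in TA33, 8 in TA31, 6 in TA36, 5 in TA30, 5 in TA35, 4 in TA34, 3 in TA37 and 1 in TA38. Both replicates reached 1 at every probe of 36 of the 54 runs, and at 1 probe or more of 48.

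The longest run held 8 probes, TA30C11 to TA30D06. In ID order replicate I read 3.37, 2.58, 2.03, 2.14, 1.88, 2.53, 2.07 and 1.64 log units, and replicate II read 3.57, 2.41, 1.99, 1.45, 1.08, 2.76, 2.58 and 1.65. The run thus had a first top at its first probe and a lower one at the sixth, in both replicates. The flanks were sharp: the mean was -0.80 at the well before it, TA30C10, and -0.55 at the well after it. Before that single low well stood another high probe, TA30C09, with 2.88 in I and 3.38 in II, and TA30C10 itself read -0.71 and -0.89.

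The other run of 4 or more in this plate, TA30F07 to TA30F10, climbed along its 4 probes. Replicate I read 1.14, 2.51, 3.10 and 3.40, and replicate II read 0.91, 2.41, 3.14 and 3.96. Its highest probe was its last, and the next well still had a mean of 0.90. The low median of plate TA30 therefore went together with 2 of the long runs of the block and with the 4th highest probe, TA30F10.

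In TA32 the run of 6 probes from TA32D05 to TA32D10 had a saddle. Replicate I read 2.35, 1.94, 0.96, 0.55, 1.67 and 2.42, and replicate II read 2.64, 1.89, 1.98, 1.81, 2.42 and 2.90. The middle probes TA32D07 and TA32D08 fell under 1 in replicate I and not in replicate II, so by replicate I alone this run was in 2 pieces. After TA32D11 and TA32D12, with means of 0.54 and 0.40, the pair TA32E01 and TA32E02 was high again, at 1.49 and 2.19.

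Plate TA34 carried nearly all of its high probes in its first rows. Rows A and B held 8 of 24 probes at 1 or more and had a median of 0.43, while rows C to H held 2 of 72 and had a median of -0.48. From TA34A10 to TA34B01 replicate I read 0.97, 3.13, 2.71 and 1.70, and replicate II read 2.11, 4.06, 3.68 and 2.83, so the shape was shared and replicate II stood about 1 log unit higher. From TA34B04 to TA34B07, 2 wells on, replicate I read 2.93, 1.64, 1.95 and 1.95 and replicate II read 3.05, 1.33, 2.26 and 2.49. The wells between these runs, TA34B02 and TA34B03, had means of 0.83 and 0.58 and did not return to the floor.

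The highest probe of the block opened a run in TA35, a plate that was low by its median. From TA35G12 to TA35H04 replicate I read 4.05, 3.56, 1.46, 1.77 and 1.36, and replicate II read 4.40, 3.66, 1.06, 1.60 and 1.34. The first pair stood at 4.23 and 3.61 in the mean and the following probes between 1.26 and 1.68, and the value before the run was 0.46. Rows D to F of the same plate had no high probe among 36 and a median of -0.73. The median of TA35 thus described the wells between its 5 runs and not the height of the runs.

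Plate TA36 held 3 of the long runs, all in rows B to D. From TA36B04 to TA36B07 replicate I read 1.90, 2.03, 2.48 and 1.20, and replicate II read 1.42, 2.50, 2.65 and 1.81. After a single well at 0.46, TA36B08, the run TA36B09 to TA36C01 read 1.002, 1.78, 3.65, 2.30 and 2.49 in I and 1.24, 2.01, 4.61, 2.04 and 2.85 in II, with its top, TA36B11, in the middle. This run ended at a well without a value, TA36C02, so its true end is unknown. From TA36D03 to TA36D06 the values were flatter, at 1.83, 1.43, 2.39 and 1.66 in I and 2.40, 2.01, 2.45 and 2.31 in II. Rows B and D together had 16 of 24 probes at 1 or more and a median of 1.58, and the other rows of TA36 had 2 of 65 and a median of -0.21.

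**Figure D3:**
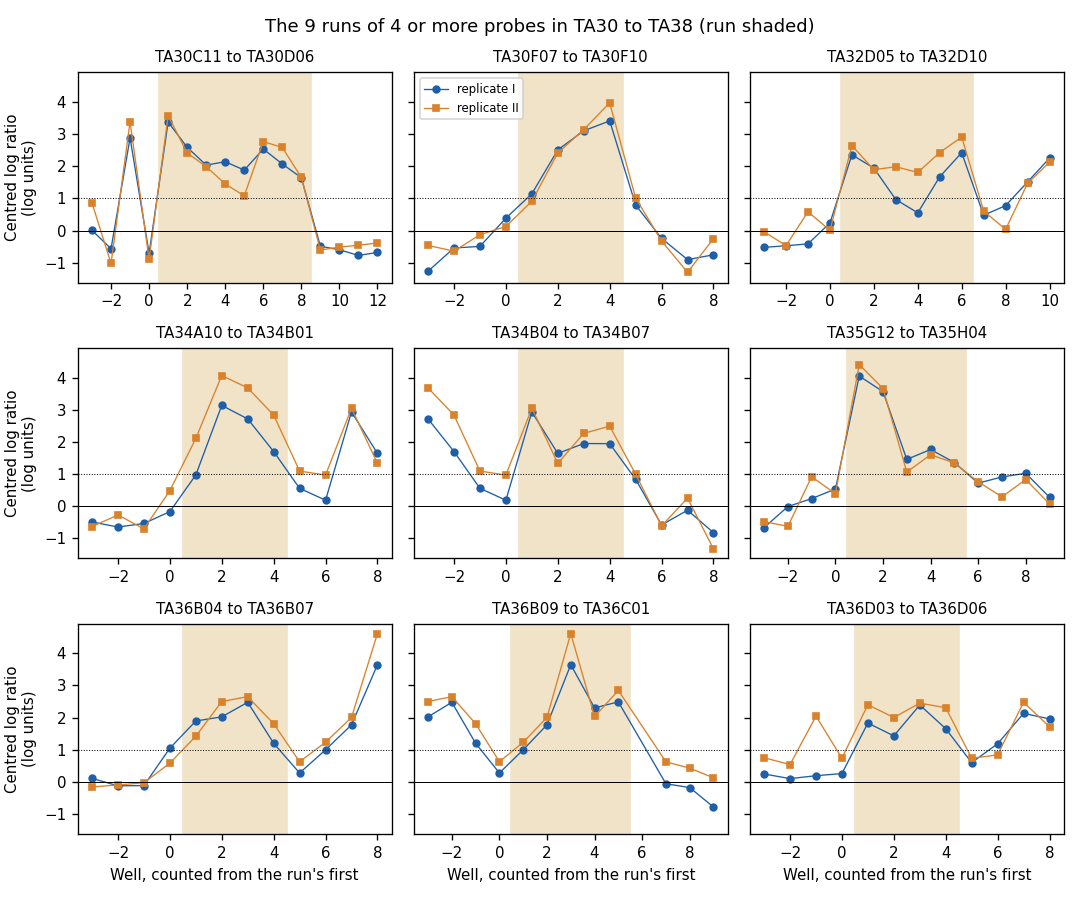
The 9 runs of 4 or more consecutive probes at a mean of 1 or more, with 4 wells on each side where they have a value. Each panel plots the centred log ratio of replicates I (blue circles) and II (orange squares) in log units against the well counted from the first of the run, the run is shaded, and a dotted line marks 1. The tops stand at the first probe (TA30C11, TA34B04, TA35G12), at the last (TA30F10, TA32D10) or inside the run.

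Shape differed from run to run. Of the 14 runs of at least 3 probes, 6 had their highest probe first, 2 had it last and 6 inside. In TA01 to TA20 the highest probe was first in 13 of 77 such runs, last in 9 and inside in 55. For the 9 such runs of TA21 to TA29 it was first in 3, last in 0 and inside in 6. TA39 to TA51 had only 2 such runs, 1 with the highest probe first and 1 with it last. In the 18 runs of 2 probes of TA30 to TA38 the first was the higher in 12. The runs were too few to set these counts against each other, and whether the IDs follow one strand or direction is not known here.

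Longer runs were taller. The median of the highest probe was 3.47 log units in the 9 runs of 4 or more, with a range of 2.42 to 4.23, 2.31 in the 23 runs of 2 or 3, reaching 3.76 at most, and 1.37 in the 22 single probes. More probes give more chances for a high one, so this order is partly built in. Among the runs of 2 or 3, TA32H03 had the highest value, with 3.58 in I and 3.94 in II. The next probe in the same class was TA32E07, with 2.58 and 4.18, where the replicates stood 1.60 log units apart. The pair TA33C12 and TA33D01 had means of 3.05 each.

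Single high probes were of mixed strength. Of the 22, 16 reached 1 in both replicates, 3 reached a mean of 2, and 4 had neighbours under 0 on both sides. The strongest was TA30C09, at 3.13, next to the longest run. TA33A03 had 2.63 in I and 2.63 in II, between neighbours at 0.11 and 0.18. TA36D01 was the least even, with 0.20 in I and 2.05 in II, and the last high probe of the block, TA38D01, had 1.46 in I and 0.63 in II.

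Values fell quickly beside a run but not at once to the floor. Next to the 32 runs of 2 or more probes, the median of the first well was 0.34 before the run and 0.47 after it, at 31 wells each. These wells were below 1 by the definition of a run. The medians of the second well were -0.03 and -0.04, and at 3 to 8 wells away they stood between -0.31 and 0.11. In TA01 to TA20 the first wells had medians of 0.27 before and 0.22 after a run, and at the fourth to seventh well the medians were above 0 on both sides, from 0.05 to 0.36.

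The intervals between runs were uneven. Between the 54 runs lay 53 intervals, of 1 to 98 valued probes and a median of 7. In 16 of them only 1 or 2 probes separated the runs, and at 15 of these 16 every such probe was above 0, the exception being TA30C10. Such close pairs of runs were spread from TA30 to TA37. The other extreme was 9 intervals of at least 20 probes. They included 64 probes from TA34D05 to TA35A08 with a median of -0.50, 55 probes from TA35C05 to TA35G11 with a median of -0.63, and 98 probes from TA37C11 to TA38C12 with a median of -0.81.

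The longest of these intervals lay near the end of the block. From TA37C11 to TA38C12 no probe reached 1, the highest mean was 0.46, and 25 of 98 probes were at -1 or less. An unbroken row of 63 probes below 0 ran from TA37C12 to TA38A02 with a median of -0.88. In TA01 to TA20 the longest row below 0 had 21 probes, in TA21 to TA29 it had 62, and in TA39 to TA51 it had 113. Before this interval, TA37 held its 4 high probes in rows B and C: the pair TA37B03 and TA37B04, with 1.11 and 0.86 in I and 1.85 and 1.37 in II, and the single probes TA37C08 at 1.30 and TA37C10 at 1.67.

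Probes at -1 or less, which would be the high side of input over IP ratios, were less grouped than the high ones. They were also fewer, which by itself leaves fewer neighbours to join, and the difference in grouping was not tested. The 72 formed 49 runs, of which 36 held 1 probe and 2 held 4 or more. The longest, TA30A03 to TA30A08, had 6 probes with a mean of -1.39, and every value was at or below -1.04 in I and -1.46 in II. It lay at the start of the block and held 5 of its 10 lowest probes. The other had 5 probes, TA37F07 to TA37F11, with a mean of -1.19. The 10 lowest means ran from -1.93 to -1.33. The lowest was TA38B10, with -1.75 in I and -2.12 in II, followed by TA34H03 with -1.14 and -2.27 and TA30G07 with -1.20 and -1.88. The 10 highest ran from 3.16 to 4.23, so the upper tail reached more than 2 times as far from 0 as the lower one.

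Runs of high probes were rarer than in TA01 to TA20 and more frequent than in either low stretch, and runs of low probes had the opposite order. There were 6.57 runs per 100 probes in TA30 to TA38, against 3.06 in TA21 to TA29, 1.09 in TA39 to TA51 and 11.2 in TA01 to TA20. Runs of probes at -1 or less numbered 5.96 per 100 probes in TA30 to TA38, against 12.5, 15.6 and 2.42. Single probes made up 22 of the 54 high runs in TA30 to TA38 (40.7%), 13 of 24 in TA21 to TA29, 6 of 13 in TA39 to TA51 and 65 of 212 in TA01 to TA20 (30.7%). Runs of 2 or 3 made up 23 of 54 (42.6%), 6 of 24, 7 of 13 and 115 of 212 (54.2%) in the same order. Runs of 4 or more made up 9 of 54 in TA30 to TA38 (16.7%), 5 of 24 in TA21 to TA29, 0 of 13 in TA39 to TA51 and 32 of 212 in TA01 to TA20 (15.1%). The mean run length was 2.17 probes in TA30 to TA38, against 2.04, 1.69 and 2.41. The median level of a high probe was 1.85 log units in TA30 to TA38, against 2.15, 2.00 and 1.95. The highest probe reached 4.23 in TA30 to TA38, against 3.58 in TA21 to TA29, 3.35 in TA39 to TA51 and 5.32 in TA01 to TA20, where it stood in a run of 3. Among runs of 4 or more the highest top was 4.23 in TA30 to TA38, against 3.58 in TA21 to TA29 and 3.59 in TA01 to TA20. These differences were not tested, because the plates were chosen by their medians.

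**Figure D4:**
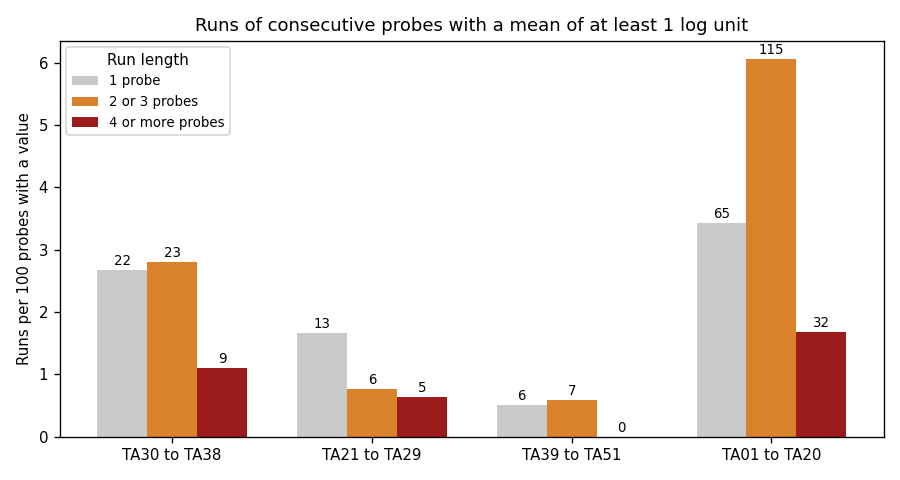
Runs of consecutive probes with a mean of 1 log unit or more per 100 valued probes, by run length, in TA30 to TA38 and in the other plates TA21 to TA29, TA39 to TA51 and TA01 to TA20, with the number of runs above each bar. TA30 to TA38 had 22, 23 and 9 runs of 1, of 2 or 3 and of 4 or more probes among 822 probes.

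Neighbours were more alike here than in TA01 to TA20 over the first 4 wells along the IDs, and beyond that the order depended on the plate medians. In TA30 to TA38 the Pearson correlation of a probe's mean with that of the next well was 0.66 over 806 pairs, and it was 0.48 at 2 wells, 0.32 at 3, 0.28 at 4, 0.18 at 6 and 0.11 at 12. In TA01 to TA20 it was 0.60, 0.22, 0.06, 0.06, 0.10 and 0.02. With plate medians removed the values at these distances were 0.61, 0.41, 0.24, 0.19, 0.06 and -0.02 in TA30 to TA38, against 0.64, 0.41, 0.30, 0.22, 0.19 and 0.10 in TA21 to TA29, 0.46, 0.30, 0.19, 0.13, 0.06 and 0.04 in TA39 to TA51, and 0.59, 0.20, 0.04, 0.04, 0.09 and 0.0024 in TA01 to TA20. On that scale the block was thus below TA01 to TA20 at 6 and 12 wells, and at or below TA21 to TA29 throughout. These pairs share probes, plates and hybridisations, and the correlations are descriptions across probes. Across replicates, I at a probe and II at the next well had a correlation of 0.60 in TA30 to TA38.

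The replicates ranked the probes alike and differed in detail. Over the 822 probes, which are not independent, the Pearson correlation between replicates was 0.87 and the Spearman correlation 0.77, against 0.88 and 0.83 over all other probes of the array. They placed 677 probes (82.4%) on the same side of 0, 250 above and 427 below. The SD of the difference was 0.54 log units and its median size 0.35. A value of 1 or more was found at 113 probes in I and 127 in II, of which 15 reached it in I alone and 29 in II alone. By replicate there were 52 runs in I and 63 in II, and 29 had the same first and last probe in both. Of the 52 runs of I, 49 overlapped a run of II, and of the 63 runs of II, 48 overlapped a run of I, which left 3 and 15 without a counterpart.

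The larger differences went mostly one way. Replicate II was higher by 1 log unit or more at 54 probes and replicate I at 9. The median of II minus I was 0.10 log units in the block and -0.04 on all other plates. Counts of differences of this size over the whole array are not given here. The 5 largest differences in the block all had II higher. They were TA32C02 with -0.70 in I and 2.65 in II, TA33D10 with -0.21 and 2.15, TA36D01 with 0.20 and 2.05, TA32E05 with -1.06 and 0.78, and TA31E03 with -0.16 and 1.64. Of these, only TA36D01 counted among the high probes, and TA32C02 and TA33D10 missed the limit at 0.97 each. By plate, such differences were found at 12 probes of TA34, 11 each of TA31 and TA32, 9 of TA33, 8 of TA36, 6 of TA38, 3 of TA30, 2 of TA37 and 1 of TA35.

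The well position moved with the difference between replicates. The median of II minus I was 0.35 log units in wells of odd rows (A, C, E and G) and odd columns, 0.19 in odd rows and even columns, 0.01 in even rows and odd columns and -0.09 in even rows and even columns. High probes made up 10.6%, 8.96%, 20.5% and 16.8% of these classes in the same order. The even rows include rows B and D of TA36, where 16 of 24 probes were at 1 or more. How much these rows add to the shares was not tested. Shares of these classes over the whole array are not given here, so no effect of well position on high probes is read from them. With the medians of these classes over the whole array removed, the share of high probes in the block was 14.4% in 53 runs. The part of the well position in single values was not tested.

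**Figure D5:**
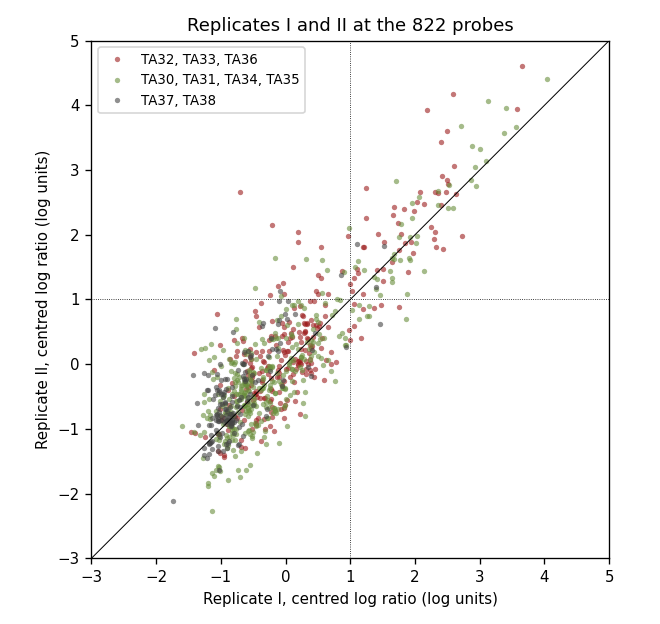
Centred log ratio of replicate II against replicate I (log units) for the 822 probes, with points coloured by plate, a line of equality and dotted lines at 1. Of the 822, 98 lie at 1 or more in both replicates, and the probes of TA37 and TA38 (dark) cluster between 0 and -1.

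A moderated test of each mean against 0 was fitted to all 21691 probes with limma, with Benjamini-Hochberg adjustment and a threshold of 0.05. It called 147 of the 822 probes above the median (17.9%, where 27.8% of all probes were called) and 246 below it (29.9%, where 19.7% were). All 117 probes at 1 or more were among the 147, but they were picked by the same means that were tested. Since the plates were chosen by these values, nothing is read from the difference to the array. The balance depended on the place of 0: with 0 at the mode of each replicate, which lay at -0.24 in I and -0.20 in II, 200 probes were above and 152 below, and without centring 20 were above and 554 below.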

How the data were processed

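The deposited value table gives 1 log ratio per array and probe for 4 two-colour arrays of 2 ChIP replicates. The authors' deposited values were taken as log2 ratios of the channels, and per the labels the DNA was amplified and labelled directly with Cy3 and Cy5 beforehand. How the authors made the ratios (image analysis, normalisation, log base, centring, direction) is not given in the sources used here. Depth has no counterpart on arrays, so the number of replicates limits the precision. Of 21800 listed probes 21691 had a value. Per the labels, each replicate was a dye-swap pair, and since the values deposited for its arrays were identical it counted once.

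Replicates were centred on their medians over valued probes and averaged. limma 3.58.1 in R 4.3.3 tested the means against 0 and was tried on simulated data, and Python 3.11.15 with pandas 2.3.3 did the rest. Runs are consecutive wells at 1 or more, and a well without a value ends one. Of 830 listed wells in the 9 plates, 8 had no value. Intervals on shares are exact Clopper-Pearson intervals at 95%. With 2 replicates of unstated origin, p-values measure a spread that may be technical.

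Named probes were the 10 highest and 10 lowest of equal sign in both replicates, members of runs of 4 or more, probes nearest to 1 and the 5 largest replicate differences. Others (short runs, wells between runs, TA38) were named after their values were seen. Plates and lists were chosen with earlier results of these data known. Alternatives covered centring, limits, single replicates, plates, wells and the prior.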

Additional observations from a re-analysis of the deposited data

How the results depend on the processing

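Of 73 alternative values, 53 stayed within 1.5 times the count or inside the interval or spread of the value, and 20 moved outside. Some of the 53 could hardly move. The spread of the median was the SD of the single-replicate medians, which were themselves among the alternatives. Passing over wells without a value left every run measure unchanged. Without centring the median was -1.69, the share at 1 or more 3.89%, the share at -1 or less 76.5%, and limma called 20 above and 554 below. With centring on the mode the median was -0.062, the share at -1 or less 2.80%, and 152 were called below. The 246 calls below the median also became 135 at an adjusted p under 0.01, 72 with a size of 1 log unit, 163 with prior degrees of freedom fixed at 4 and 141 without the low plates TA35 and TA37, where the median was -0.15. Stricter limits and fewer plates lower a count by construction. The share at 1 or more was 21.3% at a limit of 0.5 and 9.49% at 1.5, where 69.2% of high probes were in runs of 2 or more and the longest run held 4 probes. On single replicates the share at -1 or less ran from 11.8 to 12.2%, the share at 1 or more from 13.7 to 15.5%, the median from -0.34 to -0.16, the number of runs from 52 to 63 and the share of high probes in runs of 2 or more from 74.8 to 84.1%, and the longest run held 8 probes. The SD of the replicate difference was 0.50 from the median absolute deviation. The alternatives without TA35 and TA37, without the last 12 wells of TA38 and with well classes removed were chosen after seeing the data. Signal over background was not analysed here.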
